A study of Mus musculus with 9 samples.

Results

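The DNA methyltransferases and TET enzymes are a set of 8 genes, of the 23420 listed in each library, that write, maintain or erase methylation of cytosine in DNA. They were chosen by gene symbol, and no measured value enters the rule: the maintenance methyltransferase Dnmt1 and its partner Uhrf1, the de novo methyltransferases Dnmt3a and Dnmt3b, their cofactor Dnmt3l, and the dioxygenases Tet1, Tet2 and Tet3. All 8 were found, and the set was chosen with earlier results of these data known. Read counts came from whole ovaries of wild-type CD1 mice, collected on embryonic day 16 (E16) and kept in culture for 24 hours. The groups were ovaries given recombinant human BMP2 at 50 ng/ml, ovaries given the oestrogen estradiol-17β (E2) at 3.67 µM, and ovaries given vehicle, with 3 libraries each. All 3 groups shared the same medium, which was free of phenol red and held insulin, transferrin, selenium and linoleic acid. Whether the 3 libraries of a group are separate cultures or animals is not stated in the labels, and p-values then reflect only how far these samples scatter, which may be technical.

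DNMT1 copies methylation onto the new DNA strand after replication, and UHRF1 recognises hemimethylated sites and brings DNMT1 to them. DNMT3A and DNMT3B methylate new sites, DNMT3L stimulates them without catalysis of its own, and TET enzymes oxidise methylated cytosine, which leads to its loss. In the mouse, primordial germ cells lose most of their DNA methylation, and female germ cells regain it only after birth, in growing oocytes, where DNMT3A and DNMT3L are required. The fetal ovary holds those germ cells among somatic cells with methylated genomes.

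The counts assigned to genes summed to 33360565 to 34320077 per BMP2 library, 30418674 to 31778161 per E2 library and 30860223 to 34253992 per vehicle library. Of 16360 genes that passed the filter on low counts, edgeR called 2239 with BMP2 against vehicle, 5278 with E2 against vehicle and 4607 with BMP2 against E2, each at an adjusted p under 0.05. Of the markers of the labelled tissue, all 13 for germ cells and all 10 for pregranulosa cells were detected in every library. Among all marker lists only Hba-a1, an adult haemoglobin gene, was at 0 in a library of each group. The germ cell markers summed to 1997 to 2056 CPM (read counts scaled to library size with TMM factors) with BMP2, 2020 to 2043 CPM with E2 and 1874 to 1978 CPM with vehicle. Of the 13, 9 were higher with each agent than with vehicle. The most highly counted of them, Sycp1, Dazl and Sycp3, were not called with either agent. Over all tested genes, the background for marker counts here and below, 6.84% were higher and 6.85% lower with BMP2 than with vehicle. With E2 against vehicle 15.8% were higher and 16.5% lower. The 7 surface epithelium markers summed to 693 to 702 CPM with BMP2, 567 to 581 CPM with E2 and 791 to 807 CPM with vehicle. The 8 stroma markers summed to 3191 to 3245 CPM with BMP2, 2574 to 2653 CPM with E2 and 3086 to 3147 CPM with vehicle. Of these 8, 4 were higher and 4 lower with E2 than with vehicle in the edgeR test (median log2 fold change 0.021), and the sum is carried by Col3a1, at 1539 ± 26 CPM with E2 and 1923 ± 15 CPM with vehicle, while Dcn and Tcf21 were among the higher. The 10 pregranulosa markers summed to 2029 to 2046 CPM with BMP2, 1810 to 1831 CPM with E2 and 2003 to 2060 CPM with vehicle. Here 3 were higher and 3 lower with BMP2 than with vehicle, among them Foxl2, 1.16-fold higher, and Rspo1, 1.12-fold lower. In the E2 group 2 were higher and 4 lower than with vehicle, with Kitl at 776 ± 4.9 CPM with E2 and 978 ± 29 CPM with vehicle, and Wnt4 1.34-fold higher. Endothelial markers summed to 192 to 204 CPM over all libraries, but with E2 against vehicle 4 of the 5 were higher (Emcn by a log2 fold change of 0.44) and Kdr was lower (-0.32). Blood cell markers summed to 43.2 to 49.1 CPM, and with BMP2 against vehicle the granulocyte genes Mpo (5.66-fold) and Elane (4.535-fold) were higher and Ltf was 4.77-fold lower. Mpo and Elane were at low level, at 2.22 and 1.04 CPM with BMP2 and 0.39 and 0.23 CPM with vehicle. Ltf was at 2.26 CPM with BMP2 and 10.8 CPM with vehicle. The marker genes given by name were chosen after their values were seen. The part of these shifts in the results on the methylation enzymes was not tested, and in whole ovaries fewer cells of a type and less RNA per cell cannot be told apart.

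Of the 7 methylation enzyme genes that passed the filter, 1 was called with BMP2 against vehicle (Tet3, higher), 2 with E2 against vehicle (Tet2 higher, Dnmt3a lower) and 4 with BMP2 against E2 (Dnmt3a, Uhrf1 and Tet3 higher, Tet2 lower). Over all tested genes, 13.7%, 32.3% and 28.2% were called in these comparisons in that order. The first count, 14.3% of the 7, was thus near the background, as was the second at 28.6%, and the third was 57.1%. None of these differences reached 1.1-fold. Libraries did not overlap between groups for 3 of the 7 genes with BMP2 against vehicle (28% of all tested genes), for 2 with E2 against vehicle (41.2%) and for 4 with BMP2 against E2 (39.6%). The comparisons with vehicle share the vehicle libraries, and the comparison of BMP2 with E2 tests the difference between the agents directly.

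**Figure D1:**
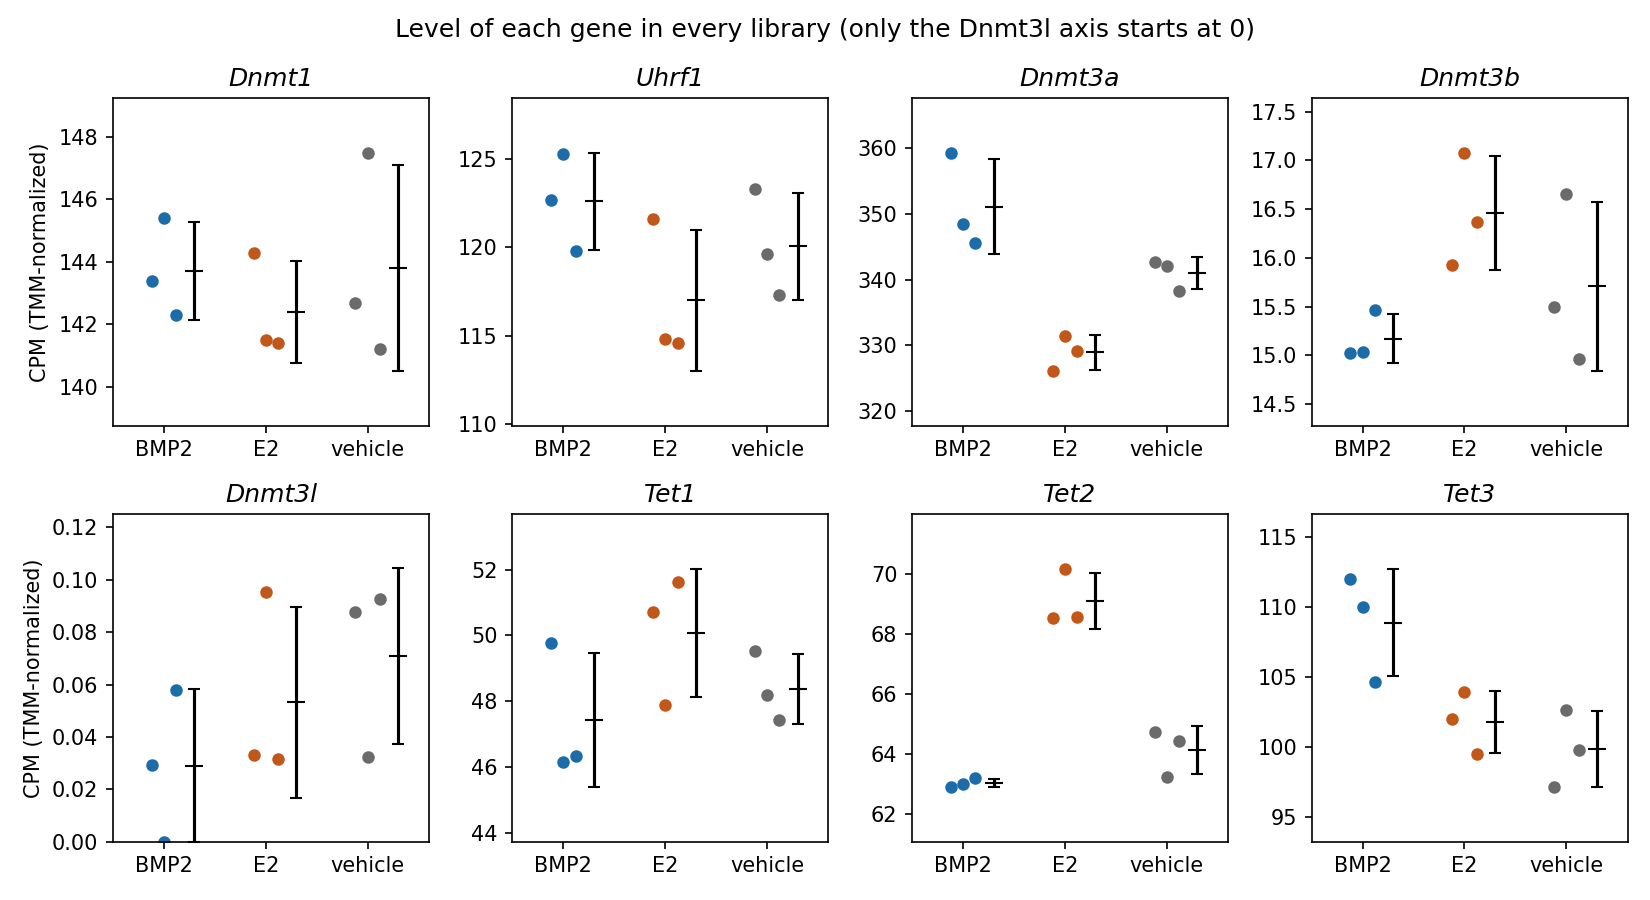
Level of each of the 8 genes in every library, in TMM-normalized CPM, with the 3 libraries of a group as points and the group mean ± SD beside them in black; only the Dnmt3l axis starts at 0. Tet3 was high in the 3 BMP2 libraries, Tet2 was high in the 3 E2 libraries, and Dnmt3a was lowest in the E2 libraries.

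Tet3 was the member that rose with BMP2. TET3 is the dioxygenase that acts on the paternal genome in the zygote, and its gene lies on the minus strand of chromosome 6 from 83362373 to 83459084 (GRCm38). Tet3 had 112, 110 and 105 CPM in the BMP2 libraries, 102, 104 and 99.5 CPM in the E2 libraries and 97.2, 103 and 99.8 CPM in the vehicle libraries. Every BMP2 library was above every E2 and every vehicle library, while the E2 and vehicle libraries overlapped. Against vehicle the log2 fold change with BMP2 was 0.13 ± 0.028 (SE; 95% interval 0.070 to 0.18; edgeR adjusted p = 0.000352), a rise of 1.09-fold. Tet3 was also higher with BMP2 than with E2, by a log2 fold change of 0.097 ± 0.028 (edgeR adjusted p = 0.0040), a call lost without BMP2 replicate 1 (adjusted p = 0.072) or without E2 replicate 3 (adjusted p = 0.053). Tet3 had a log2 fold change of 0.029 with E2 against vehicle (95% interval -0.027 to 0.085, edgeR adjusted p = 0.48).

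Tet2 was the member that rose with E2. TET2 lacks the DNA-binding CXXC domain of its relatives, and its gene lies on the minus strand of chromosome 3 from 133463679 to 133545139. It had 62.9, 63.0 and 63.2 CPM in the BMP2 libraries, 68.5, 70.2 and 68.6 CPM in the E2 libraries and 64.7, 63.2 and 64.4 CPM in the vehicle libraries. The E2 libraries stood above all 6 others, and the BMP2 libraries lay just below the vehicle libraries. With E2 against vehicle the log2 fold change was 0.11 ± 0.033 (SE; 95% interval 0.042 to 0.17; edgeR adjusted p = 0.0063), a rise of 1.08-fold. That call was lost when trends on GC content and length were removed from each library (log2 fold change 0.068, adjusted p = 0.088), a correction chosen after seeing the data. Tet2 was lower with BMP2 than with E2, by 1.096-fold (log2 fold change -0.13 ± 0.033 SE, edgeR adjusted p = 0.000615), and this held under every alternative run. With BMP2 against vehicle it had a log2 fold change of -0.025 (95% interval -0.090 to 0.040, adjusted p = 0.69).

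Tet1, the family member with a role in primordial germ cells and in activation of meiotic genes in the mouse, did not pass the test in any comparison. Its gene lies on the minus strand of chromosome 10 from 62804570 to 62908996. Tet1 had 49.8, 46.2 and 46.3 CPM in the BMP2 libraries, 50.7, 47.9 and 51.6 CPM in the E2 libraries and 49.5, 48.2 and 47.4 CPM in the vehicle libraries. The 3 groups overlapped. Its log2 fold changes were -0.029 (95% interval -0.10 to 0.046) with BMP2 against vehicle, 0.049 (-0.027 to 0.12) with E2 against vehicle and -0.078 (-0.15 to -0.0028) with BMP2 against E2. The last had an edgeR adjusted p of 0.12, and it passed without BMP2 replicate 1 (log2 fold change -0.12, adjusted p = 0.038) and without E2 replicate 2 (-0.11, adjusted p = 0.045).

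Within the family, Tet3 made up 48.9 ± 0.68% of TET reads per kb of exon with BMP2, 45.4 ± 0.79% with E2 and 46.3 ± 1.00% with vehicle (SD, n = 3 each). The Tet2 share was 28.1 ± 0.74% with BMP2, 30.5 ± 0.34% with E2 and 29.4 ± 0.56% with vehicle. For Tet1 it was 23.0 ± 0.57% with BMP2, 24.1 ± 1.0% with E2 and 24.2 ± 0.58% with vehicle. These shares do not depend on the scaling of a library, but their size, as for DNMT3 below, depends on the gene length used. Per kb of the longest transcript, vehicle levels were 9.16 CPM for Tet3, 6.99 CPM for Tet2 and 3.37 CPM for Tet1. Per kb of all exons they were 5.98, 3.80 and 3.13 CPM. The Tet3 share was higher, and the Tet2 share lower, in every BMP2 library than in every E2 and every vehicle library, and the Tet2 share was higher in every E2 library than in every vehicle library. Each of these differences had a two-sided exact permutation p of 0.10, the smallest that 3 against 3 libraries allow (adjusted p = 0.18 over 18 tests of shares).

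The promoter windows of Tet2 and Tet3, from 250 bases before to 50 bases after the RefSeq start (GRCm38.p6), are shown because these genes moved in opposite directions between BMP2 and E2. Capitals mark GGGCGG on either strand, the GC box bound by SP1, which 58.1% of the 15009 windows of tested genes held.
Tet3, chr6:83441629-83441928, minus strand: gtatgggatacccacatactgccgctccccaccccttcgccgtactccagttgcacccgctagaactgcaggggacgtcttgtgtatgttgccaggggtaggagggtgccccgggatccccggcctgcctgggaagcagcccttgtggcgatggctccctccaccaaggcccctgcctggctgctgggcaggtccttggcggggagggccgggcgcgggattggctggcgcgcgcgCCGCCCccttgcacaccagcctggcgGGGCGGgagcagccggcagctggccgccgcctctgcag
Tet2, chr3:133544341-133544640, minus strand: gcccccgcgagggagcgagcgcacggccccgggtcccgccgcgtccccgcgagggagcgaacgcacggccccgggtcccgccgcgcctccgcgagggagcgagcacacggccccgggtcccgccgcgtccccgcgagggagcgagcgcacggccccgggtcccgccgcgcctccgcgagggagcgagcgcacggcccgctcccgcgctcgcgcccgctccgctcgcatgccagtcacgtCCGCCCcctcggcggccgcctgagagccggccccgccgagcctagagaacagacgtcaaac
The Tet3 window held 22 CpG sites and 2 GC boxes, and the Tet2 window held 57 CpG sites and 1 GC box. With a median of 18 CpG sites per window over tested genes, Tet2 was at the percentile 99.8. Neither window held the palindromic oestrogen response element (GGTCA, a spacer of 3 bases, TGACC), its core AGGTCA alone or GGCGCC, a motif bound by BMP-activated SMAD proteins, on either strand. The palindrome was in 0.02% of windows of tested genes, the core in 13.1% and GGCGCC in 19.6%. Both windows lie inside the annotated genes, which begin on the minus strand at 83459084 for Tet3 and at 133545139 for Tet2. The counts do not show which start was used. The absence of letters from these windows says nothing about binding elsewhere.

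Dnmt3a, the de novo methyltransferase that growing mouse oocytes use, fell with E2 and was the most highly counted member. The gene lies on the plus strand of chromosome 12 from 3806007 to 3914443. It had 359, 349 and 346 CPM in the BMP2 libraries, 326, 332 and 329 CPM in the E2 libraries and 343, 342 and 338 CPM in the vehicle libraries. The groups did not overlap in any pair, with BMP2 highest and E2 lowest. With E2 against vehicle the log2 fold change was -0.052 ± 0.020 (SE; edgeR adjusted p = 0.033), a fall of 1.04-fold. That call was lost on leaving out any of 5 of the 6 libraries compared (adjusted p = 0.054 to 0.13) and kept without vehicle replicate 3 (0.020). With BMP2 against vehicle the log2 fold change was 0.042 ± 0.020 (95% interval 0.0036 to 0.081), and the edgeR test was not passed (adjusted p = 0.15). Dnmt3a was higher with BMP2 than with E2 by a log2 fold change of 0.094 ± 0.020 (edgeR adjusted p = 4.05e-05), a difference called under every alternative run.

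Dnmt3b, which methylates the genome of the early embryo together with Dnmt3a, was far lower and did not pass the test in any comparison. Its gene lies on the plus strand of chromosome 2 from 153649450 to 153687730. It had 15.02, 15.03 and 15.46 CPM in the BMP2 libraries, 15.93, 17.08 and 16.37 CPM in the E2 libraries and 15.5, 16.66 and 14.96 CPM in the vehicle libraries. The BMP2 libraries all lay below the E2 libraries, and vehicle overlapped both. Its log2 fold changes were -0.049 (95% interval -0.17 to 0.075) with BMP2 against vehicle, 0.069 (-0.055 to 0.19) with E2 against vehicle and -0.12 (-0.24 to 0.0061, edgeR adjusted p = 0.16) with BMP2 against E2. These intervals are wider than those of the other members, whose counts were higher. Of DNMT3 reads per kb, Dnmt3a made up 87.6 ± 0.39% with BMP2, 85.9 ± 0.37% with E2 and 86.9 ± 0.54% with vehicle (SD, n = 3 each), and the E2 libraries were below all others (exact permutation p = 0.10 each, the smallest possible, adjusted p = 0.18 over 18 tests).

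Dnmt3l, the cofactor that mouse oocytes need to set maternal imprints after birth, was at the edge of detection. The gene, on the plus strand of chromosome 10 from 78041947 to 78063622, had 1, 0 and 2 counts in the BMP2 libraries, 1, 3 and 1 counts in the E2 libraries and 3, 1 and 3 counts in the vehicle libraries. A count of 0 allows up to 3 counts, which is 0.087 to 0.099 CPM in these libraries, so every library was at or under that limit. Dnmt3l did not pass the filter, was not tested, and no fold change is given. Of its exon bases, 2.24% are shared with Aire on the other strand, and the library kit does not mark strand.

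The Dnmt3a window printed here belongs to the RefSeq start inside the gene, where shorter transcripts begin. It is shown because it was the only one of the 3 Dnmt3a windows to hold the oestrogen core AGGTCA (1, on the minus strand), beside 1 GGCGCC and 2 GC boxes, all in capitals.
Dnmt3a, chr12:3891494-3891793, plus strand: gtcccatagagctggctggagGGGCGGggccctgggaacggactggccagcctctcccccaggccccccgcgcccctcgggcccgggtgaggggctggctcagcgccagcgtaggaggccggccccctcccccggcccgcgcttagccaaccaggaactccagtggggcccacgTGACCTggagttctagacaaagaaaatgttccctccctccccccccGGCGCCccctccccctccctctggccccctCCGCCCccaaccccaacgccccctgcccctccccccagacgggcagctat
This window held 18 CpG sites, the median over tested genes, whereas the windows at the outer starts held 46 and 47. The counts are per gene and do not show which start was used. Over the 15 windows of the 8 genes, none held the oestrogen palindrome. The core AGGTCA was also in the Tet1 window and in a Uhrf1 window, and in 13.1% of windows of tested genes. Tet1 and Uhrf1 were not called with E2 against vehicle. GGCGCC was in all 3 Dnmt3a windows, in the Dnmt3b window and in a Dnmt1 window, and in 19.6% of windows of tested genes. Dnmt3a, Dnmt3b and Dnmt1 were not called with BMP2 against vehicle.

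Dnmt1, on the minus strand of chromosome 9 from 20907209 to 20959888, showed no difference that passed the test. It had 143, 145 and 142 CPM in the BMP2 libraries, 144, 142 and 141 CPM in the E2 libraries and 143, 148 and 141 CPM in the vehicle libraries. The groups overlapped, with the highest and the lowest library both in the vehicle group. The 95% interval of the log2 fold change was -0.048 to 0.047 with BMP2 against vehicle, -0.062 to 0.034 with E2 against vehicle and -0.035 to 0.061 with BMP2 against E2.

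Uhrf1, on the plus strand of chromosome 17 from 56303321 to 56323486, had 122.7, 125.3 and 119.8 CPM in the BMP2 libraries, 121.6, 114.8 and 114.6 CPM in the E2 libraries and 123.3, 119.6 and 117.3 CPM in the vehicle libraries. The groups overlapped in every pair, with 2 E2 libraries below the rest. Uhrf1 was higher with BMP2 than with E2 (log2 fold change 0.067 ± 0.027 SE, edgeR adjusted p = 0.044). That call was lost with DESeq2 (adjusted p = 0.13), after removal of the GC and length trend (0.050) and without BMP2 replicates 1 or 2 or E2 replicates 2 or 3 (0.10 to 0.22). Against vehicle its log2 fold changes were 0.030 (95% interval -0.022 to 0.082) with BMP2 and -0.037 (-0.090 to 0.016) with E2.

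**Figure D2:**
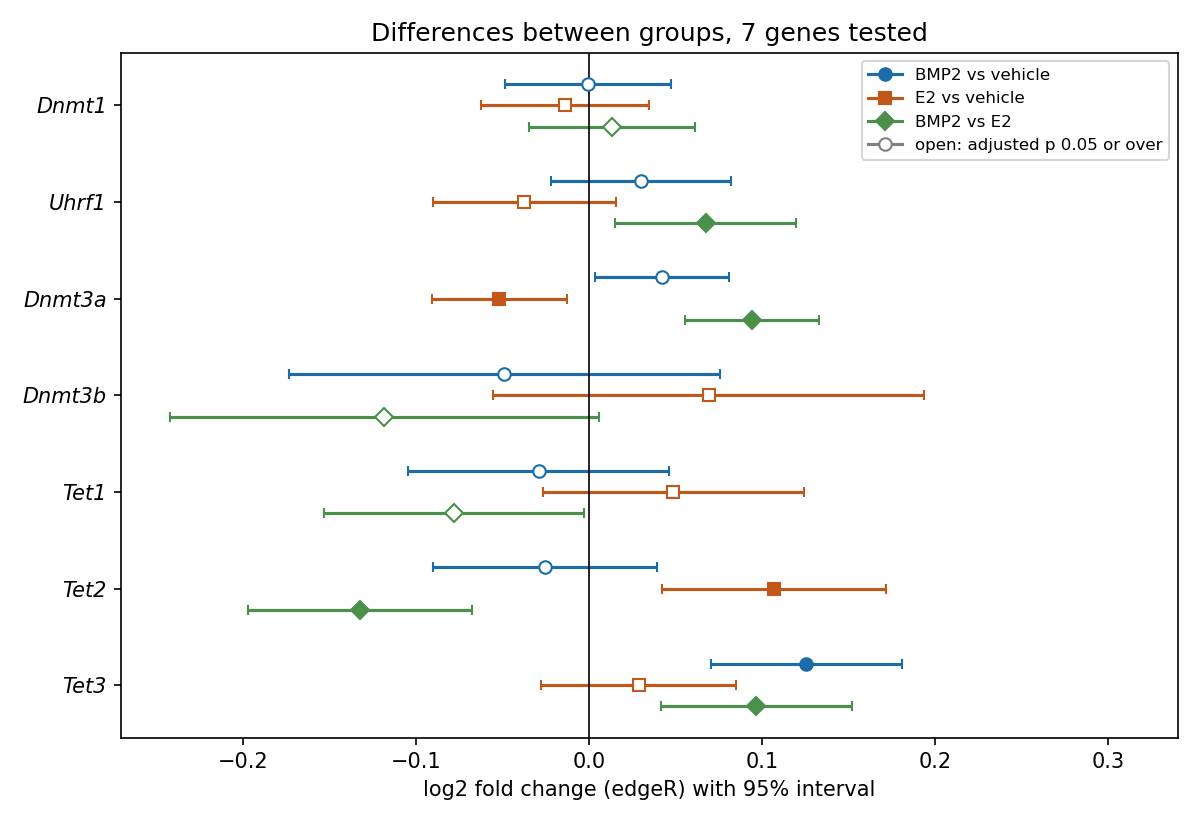
Log2 fold changes from edgeR with their 95% intervals for the 7 tested genes in the 3 comparisons, with filled symbols for an adjusted p under 0.05. The filled symbols are Tet3 with BMP2 against vehicle, Tet2 and Dnmt3a with E2 against vehicle, and Uhrf1, Dnmt3a, Tet2 and Tet3 with BMP2 against E2.

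Dnmt1 and Uhrf1 are transcribed most in dividing cells, and they were set beside 24 genes switched on at entry into S phase. These genes summed to 1461 to 1477 CPM with BMP2, 1469 to 1476 CPM with E2 and 1533 to 1582 CPM with vehicle. With BMP2, 11 of the 24 were lower than with vehicle and none was higher (median log2 fold change -0.10, against -0.0015 over all tested genes, of which 6.85% were lower); the count called was 7 without BMP2 replicate 1. In the E2 group, 11 were lower and 1 was higher (median -0.091, against -0.0026 over all genes, of which 16.5% were lower). Examples are Pole, a replicative polymerase subunit, at 90.6 ± 0.23 CPM with BMP2, 90.7 ± 0.21 CPM with E2 and 102 ± 2.3 CPM with vehicle, and the helicase subunit gene Mcm5, at 143 ± 4.2, 140 ± 1.5 and 154 ± 5.5 CPM in the same order. Relative to the mean log2 CPM of these 24 genes, a measure chosen after seeing the data, Dnmt1 stood at 1.77 ± 0.030 with BMP2, 1.76 ± 0.021 with E2 and 1.68 ± 0.034 with vehicle (SD, n = 3 each). All BMP2 and all E2 libraries were above all vehicle libraries (exact permutation p = 0.10 each, the smallest possible, adjusted p = 0.20 over 6 tests). Uhrf1 stood at 1.54 ± 0.047 with BMP2, 1.48 ± 0.052 with E2 and 1.42 ± 0.017 with vehicle, with the BMP2 libraries above all vehicle libraries and the E2 libraries overlapping them. The 24 genes were themselves lower with both agents, so this measure does not show a rise of Dnmt1 or Uhrf1. Neither gene passed the edgeR test against vehicle.

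Per length, the members formed a high and a low tier in all 3 groups. On the scale of CPM per kb of all annotated exons, Uhrf1 was at 28.8 with BMP2, 27.5 with E2 and 28.2 with vehicle. Dnmt3a was at 21.1 with BMP2, 19.8 with E2 and 20.5 with vehicle, and Dnmt1 at 19.5 with BMP2, 19.3 with E2 and 19.5 with vehicle. The erasers followed, with vehicle levels of 5.98 ± 0.16 for Tet3, 3.80 ± 0.048 for Tet2 and 3.13 ± 0.069 for Tet1, and Dnmt3b stood at 3.08 ± 0.17 (SD, n = 3 each). In vehicle, Tet1 and Dnmt3b did not differ beyond their spread, while the other neighbours in this order did. Dnmt3l was at 0.0097 with BMP2, 0.018 with E2 and 0.024 with vehicle, from at most 3 counts a library. With the length of the longest transcript instead, Dnmt3a (35.2 CPM per kb in vehicle) stood above Uhrf1 (33.5), and Dnmt3b (3.64) above Tet1 (3.37), so these orders depend on which transcripts the ovary makes, which the counts do not show.

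**Figure D3:**
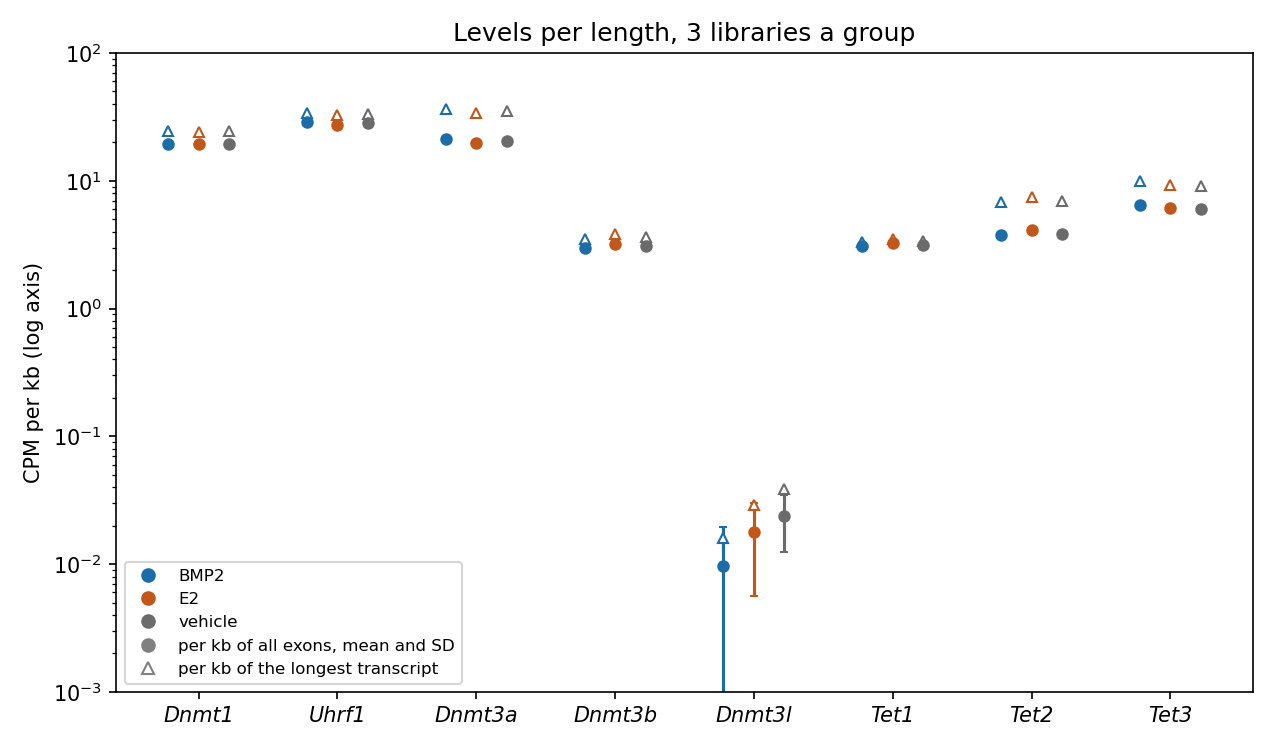
Level per length of the 8 genes by group, in CPM per kb on a log axis, as the mean ± SD over 3 libraries per kb of all exons (filled) and the mean per kb of the longest transcript (open triangles). Uhrf1, Dnmt3a and Dnmt1 stood highest, Dnmt3l far below all others, and the lower SD bar of Dnmt3l with BMP2 runs off the axis.

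Among 22 tested partners that place, hold or block DNA methylation, 4 were higher and 3 lower with BMP2 than with vehicle (median log2 fold change -0.0057). The E2 libraries had 5 higher and 3 lower than vehicle (median 0.012), and with BMP2 against E2 1 was higher and 2 were lower (median -0.0063, against 0.0014 over all genes). These are 31.8%, 36.4% and 13.6% of the list, against 13.7%, 32.3% and 28.2% of all tested genes in the same order. The largest of the named changes was in Dppa3, which encodes STELLA, a germ cell protein known in mouse oocytes to keep UHRF1 out of the nucleus. Dppa3 had 12.2 ± 0.46 CPM with BMP2, 12.9 ± 1.2 CPM with E2 and 6.90 ± 0.36 CPM with vehicle (SD, n = 3 each), a rise of 1.77-fold with BMP2 (edgeR adjusted p = 3.8e-16) and of 1.87-fold with E2. Kdm1b, a histone demethylase that mouse oocytes need for imprints, had 74.4 ± 0.55 CPM with BMP2, 76.3 ± 1.3 CPM with E2 and 61.3 ± 2.0 CPM with vehicle, a rise of 1.21-fold with BMP2 and of 1.24-fold with E2. Both are expressed in germ cells, and 9 of 13 germ cell markers, Dppa3 among them, were higher with each agent (median log2 fold changes 0.23 with BMP2 and 0.24 with E2). Over all tested genes, 6.84% were higher with BMP2 and 15.8% with E2. The other 4 markers, Dazl, Sycp1, Sycp3 and Pou5f1, were not called with either agent. The part of the germ cell markers' shift in the changes of Dppa3 and Kdm1b was not tested. Cdca7, a partner of the remodeller HELLS, was lower with BMP2 (40.3 ± 0.69 CPM) than with E2 (45.5 ± 0.52 CPM) and than with vehicle (48.2 ± 0.45 CPM). The replication clamp gene Pcna was lower with both agents, at 181 ± 2.1 CPM with BMP2 and 177 ± 2.9 CPM with E2 against 198 ± 5.7 CPM with vehicle. It was not called with BMP2 against E2 (edgeR adjusted p = 0.29).

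Of 21 tested partners of the TET enzymes and genes that remove oxidised bases, 6 were higher and 4 lower with E2 than with vehicle (median log2 fold change 0.024), against 15.8% higher and 16.5% lower over all genes. With BMP2, 4 were higher and none was lower (median -0.0011), against 6.84% higher over all genes, and this count was 1 with DESeq2, 1 without BMP2 replicate 1 or 2 and 2 without vehicle replicate 1 or 2. Without E2 replicate 3 the E2 count was 5 in place of 10, and with BMP2 against E2, where 4 were higher and 3 lower, it was 4 in all without E2 replicate 2. Idh1, whose enzyme makes the 2-oxoglutarate that TET enzymes consume, had 527 ± 3.9 CPM with BMP2, 693 ± 8.4 CPM with E2 and 531 ± 7.0 CPM with vehicle. It was 1.31-fold higher with E2 than with vehicle (log2 fold change 0.38 ± 0.018 SE, edgeR adjusted p = 3.0e-44) and 1.32-fold lower with BMP2 than with E2. Gadd45g, a stress gene whose family is linked to DNA demethylation, had 10.6 ± 1.3 CPM with BMP2, 17.4 ± 0.97 CPM with E2 and 11.2 ± 1.0 CPM with vehicle, a rise of 1.56-fold with E2. Ogt, whose product binds TET2 and TET3, had 582 ± 2.1 CPM with BMP2, 615 ± 7.3 CPM with E2 and 555 ± 9.2 CPM with vehicle, and all 3 pairs of groups differed in the edgeR test. With BMP2 the remaining named genes were Cxxc4, which binds TET2 (log2 fold change 0.25 ± 0.075 SE, edgeR adjusted p = 0.012), and the repair glycosylase gene Neil1 (0.27 ± 0.086, adjusted p = 0.023). The Cxxc4 call was lost with DESeq2, without BMP2 replicate 1 or 2 and without vehicle replicate 3 (adjusted p = 0.063 to 0.078). The Neil1 call was lost with DESeq2, without BMP2 replicate 1 or 2 and without any 1 of the vehicle replicates (adjusted p = 0.053 to 0.13).

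Of 10 readers of methylated CpG and their family members, 1 was higher with BMP2 than with vehicle (median log2 fold change 0.019) and 2 with E2 than with vehicle (median 0.069), with none lower in either, which is 10% and 20% of the list against 13.7% and 32.3% of all genes called. With BMP2 against E2, 2 were higher and 3 lower (median -0.030, with 14.1% higher and 14% lower over all genes). Without E2 replicate 3 none was called with E2 against vehicle, and 3 were called with BMP2 against E2, as without BMP2 replicate 1 or E2 replicate 2. Mbd6 had 67.4 ± 3.6 CPM with BMP2 and 59.2 ± 2.5 CPM with vehicle (log2 fold change 0.19 ± 0.035 SE, edgeR adjusted p = 1.3e-05). Mbd1, a repressor that binds methylated CpG, had 48.6 ± 0.85 CPM with BMP2, 53.0 ± 1.4 CPM with E2 and 49.4 ± 2.2 CPM with vehicle, and was called higher with E2 than with vehicle and lower with BMP2 than with E2. Its E2 and vehicle libraries overlapped, and that call was lost with DESeq2, after removal of the GC and length trend, without E2 replicate 1 or 3 and without vehicle replicate 2 or 3 (adjusted p = 0.061 to 0.14). Zbtb38 was higher with E2, at 26.4 ± 1.4 CPM, than with vehicle, at 23.6 ± 1.0 CPM, a call lost without E2 replicate 3 (edgeR adjusted p = 0.10) or vehicle replicate 3 (0.066). Zbtb33, which encodes Kaiso, was lower with BMP2 than with E2 (89.6 ± 1.4 against 96.0 ± 0.94 CPM), and Zbtb4 was higher (50.0 ± 0.60 against 45.8 ± 1.7 CPM), the second call being lost without E2 replicate 2 (edgeR adjusted p = 0.088).

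The 16 genes of the methyl donor cycle, which supplies S-adenosylmethionine, moved in both directions. With BMP2 against vehicle 3 were higher and 2 lower (median log2 fold change -0.0064), with E2 against vehicle 5 were higher and 2 lower (median 0.012), and with BMP2 against E2 1 was higher and 5 were lower (median -0.057). The shares called were 31.2%, 43.8% and 37.5%, against 13.7%, 32.3% and 28.2% of all genes in the same order. Without BMP2 replicate 1, 3 in place of 5 were called with BMP2 against vehicle. Ahcy, which clears the inhibitory by-product of methylation, fell with BMP2, to 201 ± 1.5 CPM against 216 ± 1.0 CPM with vehicle. Shmt2, the mitochondrial serine hydroxymethyltransferase, fell by 1.11-fold with BMP2, a call lost without vehicle replicate 2 (edgeR adjusted p = 0.12). Cbs, which draws homocysteine out of the cycle, was at low level and had 2.19 ± 0.11 CPM with BMP2, 4.01 ± 0.58 CPM with E2 and 2.13 ± 0.11 CPM with vehicle, a rise of 1.87-fold with E2. Mtr, the methionine synthase, had 231 ± 3.5 CPM with BMP2, 208 ± 1.7 CPM with E2 and 221 ± 1.8 CPM with vehicle, a fall of 1.06-fold with E2.

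Germ line genes whose promoters are methylated and silent in somatic cells were also examined. The ovaries hold germ cells, so these counts cannot show whether the promoters are methylated in somatic cells. Of 20 tested, 7 were higher and 2 lower with BMP2 than with vehicle (median log2 fold change 0.061), 5 were higher and 5 lower with E2 than with vehicle (median 0.011), and 7 were higher and none lower with BMP2 than with E2 (median 0.046). The shares called were 45%, 50% and 35%, against 13.7%, 32.3% and 28.2% of all genes in the same order. Tdrd1, of the piRNA pathway, had 62.0 ± 2.4 CPM with BMP2, 65.3 ± 1.4 CPM with E2 and 44.6 ± 1.4 CPM with vehicle, a rise of 1.39-fold with BMP2 and of 1.46-fold with E2. Mov10l1, a piRNA helicase gene, had 225 ± 2.6 CPM with BMP2, 232 ± 2.9 CPM with E2 and 194 ± 2.4 CPM with vehicle. Tex101 was lower with both agents, at 89.8 ± 2.5 CPM with BMP2, 91.0 ± 0.17 CPM with E2 and 107 ± 2.9 CPM with vehicle. Hormad1, a meiotic axis gene, was also lower with both agents and lowest with E2, at 180 ± 4.4 CPM with BMP2, 166 ± 3.8 CPM with E2 and 191 ± 4.5 CPM with vehicle, and all 3 pairs differed in the edgeR test. Several of these genes are also germ cell markers, whose shift is given above, and DNA methylation itself was not measured.

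**Figure D4:**
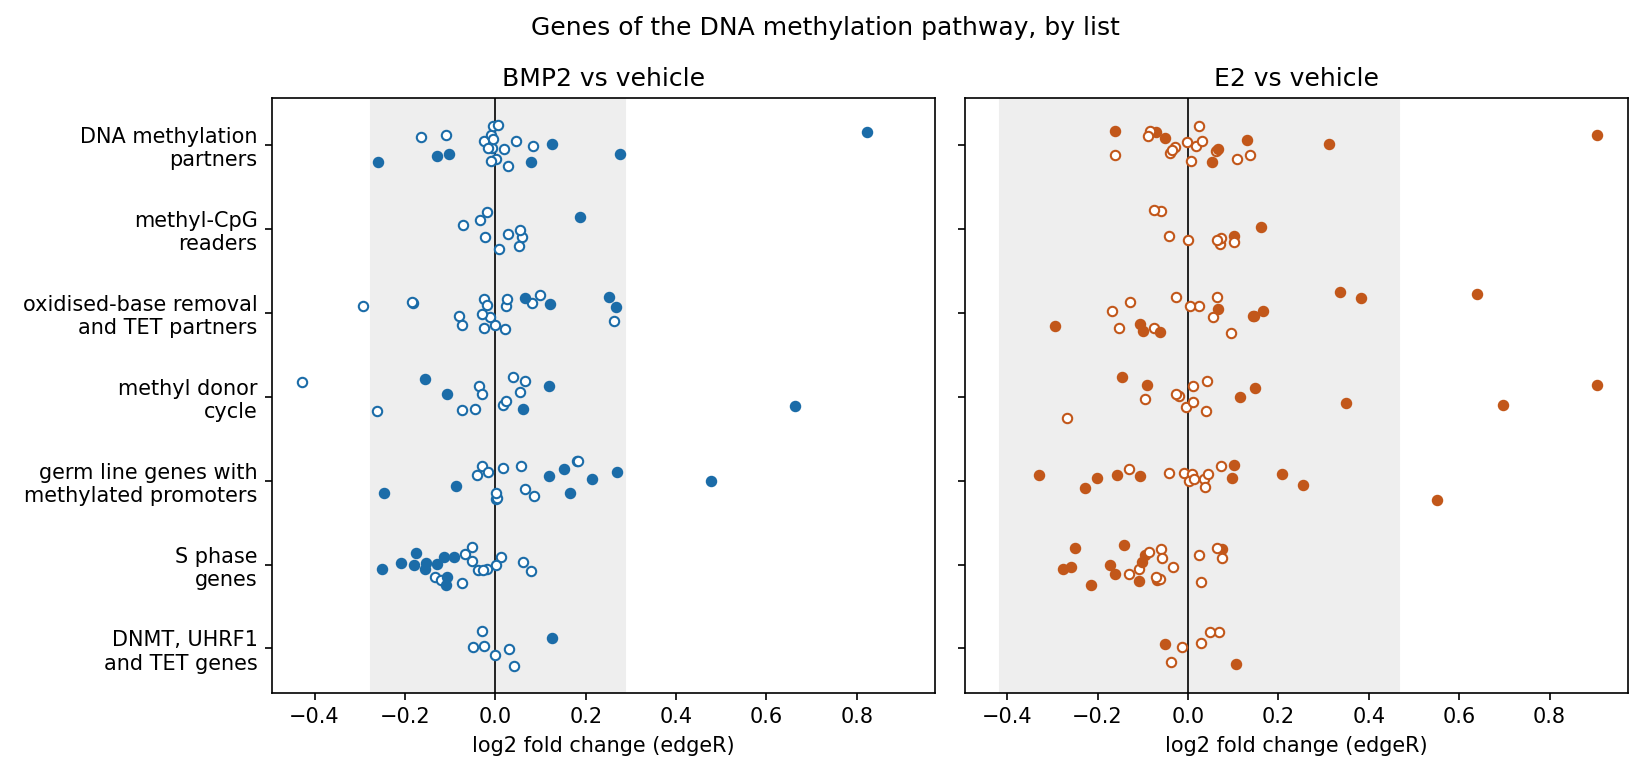
Log2 fold changes of the tested genes of the 6 lists and of the 7 tested methylation enzyme genes, with BMP2 against vehicle (left) and E2 against vehicle (right), 1 point a gene, filled where the edgeR adjusted p was under 0.05; the shaded band spans the 5th to 95th percentile of all tested genes, and vertical scatter within a row is for visibility only. In both comparisons with vehicle Dppa3 lies to the right and most S phase genes lie left of 0, and Idh1, Gadd45g and Cbs lie to the right with E2 against vehicle.

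The genes whose profile over the 9 libraries was closest to a called member's were found by the root mean square difference of centred log2 CPM among 11409 genes. Closest to Tet3 were Clpb (0.021), Ppp1r26 (0.021) and Cln3 (0.023). For Tet2 they were Usp31 (0.012), Ssr3 (0.013) and Mapkapk2 (0.013), for Dnmt3a Gtf2i (0.012), Slc25a11 (0.013) and Atp6v1b2 (0.013), and for Uhrf1 Snf8 (0.016), Tnk2 (0.019) and Trmt2a (0.019). Within 0.05 lay 397 genes of Tet3, 1394 of Tet2, 1844 of Dnmt3a and 1438 of Uhrf1. The members' own centred profiles had a root mean square of 0.063 for Tet3, 0.059 for Tet2, 0.042 for Dnmt3a and 0.043 for Uhrf1. A gene with no change at all would thus lie within 0.05 of Dnmt3a and of Uhrf1, and just outside it for Tet2 and Tet3. These counts therefore include genes of little change and do not show how many share a member's profile.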

How the data were processed

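RNA of whole cultured ovaries was sequenced in 9 libraries prepared by an unstranded Illumina TruSeq protocol, per the labels' protocols. Each deposited file holds raw read counts per gene; TopHat2, HTSeq, DESeq2 and mm10 are named in the submitters' processing notes without their order. Neither annotation nor strand setting is given in the sources used here, and counts do not separate isoforms. The 5 lines that tally unassigned reads, 38.2% to 39.7% of a library, were left out. The treatment was read from title prefixes: E2 as written, B2 taken as BMP2 and C as vehicle.

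Counts were filtered with filterByExpr (minimum count 10, minimum total 15), which kept 16360 genes, scaled by TMM and fitted with edgeR 4.0.16 (limma 3.58.1, R 4.3.3) as 1 robust quasi-likelihood model over all 9 libraries, with 6 residual degrees of freedom and a biological coefficient of variation of 1.87%. Genes with a Benjamini-Hochberg adjusted p under 0.05, over all tested genes, are those called. The steps were tested on simulated data. The set of 8 genes and the 12 gene lists were chosen with earlier results of these data known. Up to 3 called genes with the smallest p-values per list and comparison are examples in the text, except that 1 gene is not reported here and not all others are printed, and for each called member the 3 genes closest in profile among those with a mean CPM of at least 5. GENCODE vM21 (GRCm38, the same as mm10) gave the coordinates, and RefSeq gave promoter windows on GRCm38.p6, where all 8 genes matched with 15 windows; motifs were searched on both strands.

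Alternatives were DESeq2 1.42.0, median-ratio size factors, no filter, a mean CPM of at least 1, only the groups compared, the replicate block, an adjusted p under 0.01 and each library left out. Removal of trends on GC content and length (splines with 5 degrees of freedom, for 93.61% of tested genes) was chosen after seeing the data.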

Additional observations from a re-analysis of the deposited data

How the results depend on the processing

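The count of methylation enzyme genes called with BMP2 against vehicle was 1 under every alternative run. With E2 against vehicle, where it was 2, it was 1 at an adjusted p under 0.01 and 1 after removal of the GC and length trend, and 1 to 2 with a library left out. With BMP2 against E2, where it was 4, it was 3 with DESeq2, at an adjusted p under 0.01 and after that removal, and 2 to 4 with a library left out (2 without E2 replicate 3). Dnmt1 has a log2 fold change near 0 and changed sign without a call. With BMP2 against vehicle it was 0.00046 with median-ratio factors, 0.0012 with no filter, 0.00043 for genes of mean CPM 1 or more, 0.00025 with DESeq2 and 8.8e-05 with only the groups compared, and it ranged from -0.013 to 0.019 with a library left out. With E2 against vehicle it ranged from -0.026 to 0.0059 with a library left out. The replicate numbers did not pair the libraries (correlations of deviations -0.031 to 0.027), and a replicate block left the counts at 1, 2 and 4. Counts for lists moved by over 1.5 times in these cases, and the cause was not tested. With BMP2 against vehicle, TET partners gave 1 in place of 4 and the methyl donor cycle 3 in place of 5, and S phase genes 7 in place of 11, each with DESeq2 and at an adjusted p under 0.01. With E2 against vehicle, readers gave 1 with DESeq2 and at 0.01 and 5 with the trend removed, in place of 2, and TET partners 6 at 0.01 in place of 10. With BMP2 against E2, methylation partners gave 1 at 0.01, 5 with the replicate block and 6 with the trend removed, in place of 3; TET partners gave 4 in place of 7 and S phase genes 3 in place of 6, with DESeq2 and at 0.01. With the longest transcript as length, the difference in share between BMP2 and E2 was 1.28 percentage points for Dnmt3a and -1.25 for Dnmt3b. Differences under about 1.1-fold rest on a spread between libraries that may be technical.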
